A study of Drosophila melanogaster with 72 samples.

Results

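The genes described here encode the proteins of the cytosolic ribosome of Drosophila melanogaster. They were chosen by name alone: every gene of the deposited table whose symbol begins with RpL or RpS followed by a digit, or with RpLP, was taken, which gave 90 of 13557 genes. Of these, 41 encode proteins of the large subunit, 25 proteins of the small subunit and 3 the acidic stalk, and 21 belong to duplicated pairs or are named as -like copies. RNA was measured by sequencing in 72 libraries of fly heads after expression of mutant huntingtin (mHTT), which carries a lengthened glutamine tract and causes Huntington's disease. Libraries were in 24 groups of 3, and each library held RNA from 50 heads. The question of each comparison was how head RNA differs when mHTT is made in glia or in neurons, as a fragment or as the whole protein.

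Glial expression was driven by repo-GAL4 and neuronal expression by elav-GAL4, so that the transgene is active in 1 class of cells while the RNA came from all cells of the head. The glial N-terminal model carried repo-GAL4/+ with UAS-HTTNT231Q128/+ and was sampled 5, 7 and 8 days after eclosion. The glial full-length model carried repo-GAL4/+ with UAS-HTTFLQ200/+ and was sampled at 18, 20 and 22 days. The neuronal N-terminal model carried elav-GAL4/+ with UAS-HTTNT231Q128/+ and was sampled at 7, 9 and 11 days, and the neuronal full-length model carried elav-GAL4/+ with UAS-HTTFLQ200/+ and was sampled at 18, 20 and 22 days. Controls of the same ages carried the driver alone. Flies were kept at 28 °C, or at 29 °C for the neuronal full-length model and its controls. The labels do not say whether replicates came from separate crosses, so the p-values below measure the spread between libraries, which may be partly technical.

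The ribosome joins amino acids into protein. Its small subunit reads the messenger RNA and its large subunit forms the peptide bond, while the stalk of the large subunit recruits the GTP-binding translation factors. The proteins are made in nearly equal amounts because 1 copy of almost every one enters each ribosome, and flies with a single working copy of one of these genes develop slowly and have short bristles (the Minute phenotype). Production of ribosomal proteins follows nutrition and growth signals, among them the TOR pathway, and in the adult head every cell type needs it.

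Values are the deposited gene estimates, which have a 75th percentile of 1000 over all genes in every library. In the median library 86.2% of the values above 0 were whole multiples of 1 step, within 0.05 of a step. Genes at a single step ran from 493 bases at the 10th percentile of length to 2239 at the 90th in the median library, so the values are scaled reads that were not divided by transcript length. A step then stands for 1 read, and the libraries held an estimated 34900000 to 46700000 reads. On this scale the members were among the most abundant messages: 38 of the 100 genes with the highest mean over the 72 libraries were members, and together the members held a median of 8.91% of the summed value of a library. Their mean values, not divided by transcript length, ran from 6068 to 62691 in 79 members. The other 11 were all duplicated or -like genes. Those at the bottom were RpL22-like, RpS28-like, RpL37b, RpS19b and RpS10a, with means between 0.269 and 2.60, and these 5 did not reach a value of 10 in at least 3 libraries of any model and were not tested. RpL22-like was at 0 in 51 of 72 libraries.

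With values divided by transcript length in kilobases, 1 gene of most duplicated pairs carried nearly all of the signal in heads. RpS15Aa had a mean of 28416 per kilobase and RpS15Ab 872, RpS19a 14749 and RpS19b 1.47, RpL37a 20836 and RpL37b 1.70, and RpS10b 10248 and RpS10a 4.30. RpS14a with 23973 and RpS14b with 10215 per kilobase, and RpL34b with 11341 and RpL34a with 4788, were both well expressed. Copies with near-identical sequence can share reads, so how the signal is divided within a pair is uncertain. The partners RpS28a and RpL10Aa were not analysed here.

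Most libraries had a similar level of ribosomal protein message, and 2 stood apart. Setting each of the 85 tested members relative to its own median library and taking the median over members gave a level between -0.45 and 0.23 (log2) in 70 libraries. In replicate 1 of the glial N-terminal mHTT group at day 7 it was 0.83, with 84 of 85 members above their own median. In replicate 2 of the neuronal N-terminal control group at day 11 it was 2.71, with 85 of 85 above. Members held 12.4% of the summed value in the former and 27.1% in the latter, against 7.06% to 10.6% in the other 70. RpS13 shows the size of it: the neuronal control group at day 11 had values of 22801, 107141 and 20602.

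Both libraries also had a trend with transcript length, whose part in the excess was not tested. Over genes that are not members, the deviation of a gene changed by -0.31 (log2) per doubling of length in the former and by -1.01 in the latter, and between -0.34 and 0.10 in the other 70. The value of -0.34 belonged to replicate 1 of the neuronal full-length mHTT group at day 22, where the member level was 0.03. The transcripts of 55 of the 85 tested members were at most 1000 bases long. The neuronal control library was also the only 1 whose label starts with the prefix V31614, so prefix and library cannot be told apart there. Results for the 2 models concerned are given with and without these libraries.

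In a pair of other libraries markers of other organs stood out. Replicate 1 of the neuronal full-length mHTT group at day 22 had the highest summed values of the 72 libraries for 9 ovary markers, 17850, and for 8 gut markers, 108236. Replicate 1 of the glial full-length control group at day 22 came next, with 6313 and 86385. Their member levels of 0.03 and -0.14 lay within the range of the other libraries.

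**Figure D1:**
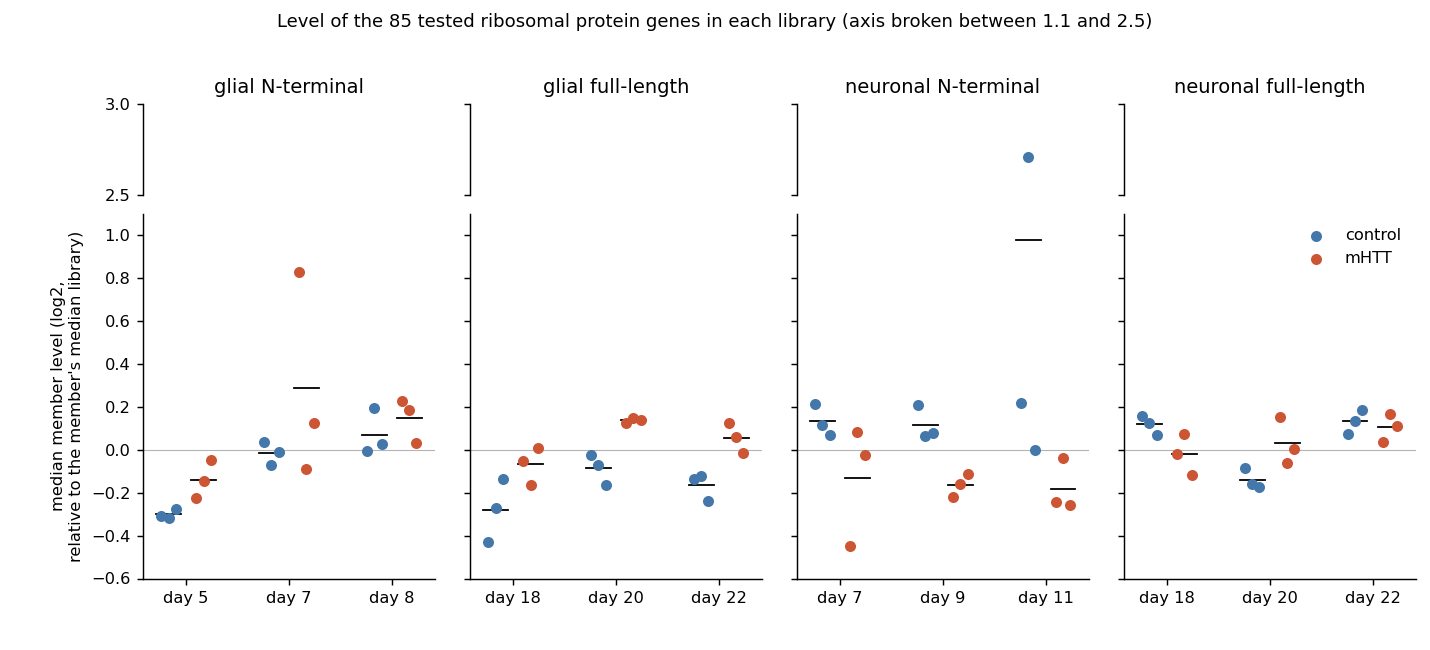
Each point is 1 library, and its height is the median over the 85 tested members of log2(value + 1) relative to the member's own median library. Bars are the means of the 3 libraries of an age and arm, and the vertical axis is broken between 1.1 and 2.5. In glial full-length heads the mHTT means lie above the control means at days 18, 20 and 22. In neuronal N-terminal heads they lie below, and 1 control library sits at 2.71.

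Glial expression of full-length mHTT was accompanied by more message for most ribosomal proteins on the deposited scale. The members' mean share of the summed value was 8.34 ± 0.61% (SD, n = 9) in controls and 8.76 ± 0.56% in mHTT flies. The ranges of this share overlapped between the arms. Over the 3 ages, limma with Benjamini-Hochberg adjustment over all genes called 58 of the 85 tested members higher and 1 lower at an adjusted p under 0.05. The background over all genes was 19.3% higher and 25.1% lower. The median change was 0.23 (log2 of value + 1), against -0.04 over all genes, and 81 of 85 members had a positive change. Without the control library with high ovary and gut markers, 59 were called higher and 1 lower (background 21.4% and 30.2%). At day 18 the member level was -0.28 ± 0.15 (SD, n = 3) in controls and -0.07 ± 0.09 in mHTT flies. At day 20 it was -0.09 ± 0.07 against 0.14 ± 0.01, and at day 22 -0.17 ± 0.06 against 0.06 ± 0.07.

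RpS13, a small-subunit protein, changed most. Its control values had a lowest of 11921, a median of 13304 and a highest of 15042, and its mHTT values a lowest of 19274, a median of 20854 and a highest of 22721. Every mHTT library lay above every control library. It rose by 0.63 ± 0.04 (SE, 9 against 9 libraries), or 54.6% (limma, adjusted p = 1.48e-09), and its change was 0.59, 0.71 and 0.58 at days 18, 20 and 22.

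RpS9, which takes part in accurate decoding, and RpS3, which lies where the messenger RNA enters the small subunit, were next. RpS9 ran from 12715 through a median of 18101 to 19559 in controls and from 18925 through 23942 to 26052 in mHTT flies. RpS3 ran from 15752 through 20021 to 22479 in controls and from 22376 through 28145 to 29825 in mHTT flies. In both, only the edges of the arms overlapped. RpS9 rose by 0.45 ± 0.07 (limma, adjusted p = 4.66e-05) and RpS3 by 0.44 ± 0.06 (adjusted p = 1.02e-05).

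Of the small-subunit genes 20 of 25 rose and 1 fell, with a median change of 0.29, and of the large-subunit genes 27 of 41 rose, with a median of 0.23. The difference between subunits was not tested. Both genes that encode a ribosomal protein fused to ubiquitin rose. RpS27A had control values of 24049 to 27731 and mHTT values of 30845 to 36736, with no overlap, and rose by 0.36 ± 0.04 (limma, adjusted p = 1.80e-06). RpL40 had 14953 to 17282 and 18393 to 21184, again with no overlap, and rose by 0.35 ± 0.04 (adjusted p = 2.39e-06).

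Of the 3 stalk genes, 1 was called. RpLP0, its base, ran from 16915 to 26115 in controls and from 21214 to 28902 in mHTT flies, and rose by 0.28 ± 0.06 (limma, adjusted p = 0.0019). RpLP2, which binds to that base together with RpLP1, ran from 14044 to 20193 and from 15958 to 18471, a change of 0.01 ± 0.06 (adjusted p = 0.92). RpLP1 had a change of 0.09 ± 0.07 (adjusted p = 0.322). RpS6, the target of S6 kinase, rose by 0.18 ± 0.07 (adjusted p = 0.0373) and RpL41, the smallest ribosomal protein, by 0.18 ± 0.05 (adjusted p = 0.0136). RpL22 had a change of 0.03 ± 0.05 (adjusted p = 0.638).

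RpS4 went the other way. Control values ran from 28381 through a median of 30091 to 31907 and mHTT values from 24487 through 27158 to 30597. The arms overlapped, and it fell by 0.12 ± 0.04 (limma, adjusted p = 0.0283).

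At single ages of the glial full-length model, 25 members were called higher and 1 lower at day 18 (background 9.93% and 10.2%), 35 higher at day 20 (background 10.7%) and 36 higher at day 22 (background 15.1%). The count at day 18 was 12 without control replicate 1 and 36 without control replicate 3 (background 7.49% and 9.58%), and that at day 22 was 20 without mHTT replicate 1 (background 12.6%). The same 23 members were called higher at all 3 ages, RpS13, RpS9, RpS3, RpS27A and RpL40 among them. An F test for a change that differs between ages called 0 of 85 members (limma, background 0.864%, 1 member at an unadjusted p under 0.05). In 13 of 85 members all 9 mHTT libraries lay above all 9 control libraries, against 6.12% of all genes. Among the 13 were RpS13, RpS15Aa, RpS20, RpS25, RpS27A, RpS29, RpS30, RpL9, RpL10Ab, RpL30, RpL36A and RpL40.

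The label prefix of the libraries was not balanced between the arms of this model. Prefix H57777 was carried by 6 control and 3 mHTT libraries, prefix H57779 by 3 and 6. Within H57777 the mean member level was -0.23 in controls and -0.08 in mHTT flies, and within H57779 it was -0.07 and 0.10. The difference was thus 0.15 and 0.17, while prefix H57777 had the lower level in both arms. These means by prefix were not matched for age. All 3 controls of day 18 carried H57777, and all 3 mHTT libraries of day 20 carried H57779. With the prefix as a covariate 46 members were called higher and 2 lower (background 18.2% and 22.4%). After quantile normalisation 17 were higher and 8 lower, about the background of 19.4% for higher and below that of 23.6% for lower, and the median change was 0.04.

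**Figure D2:**
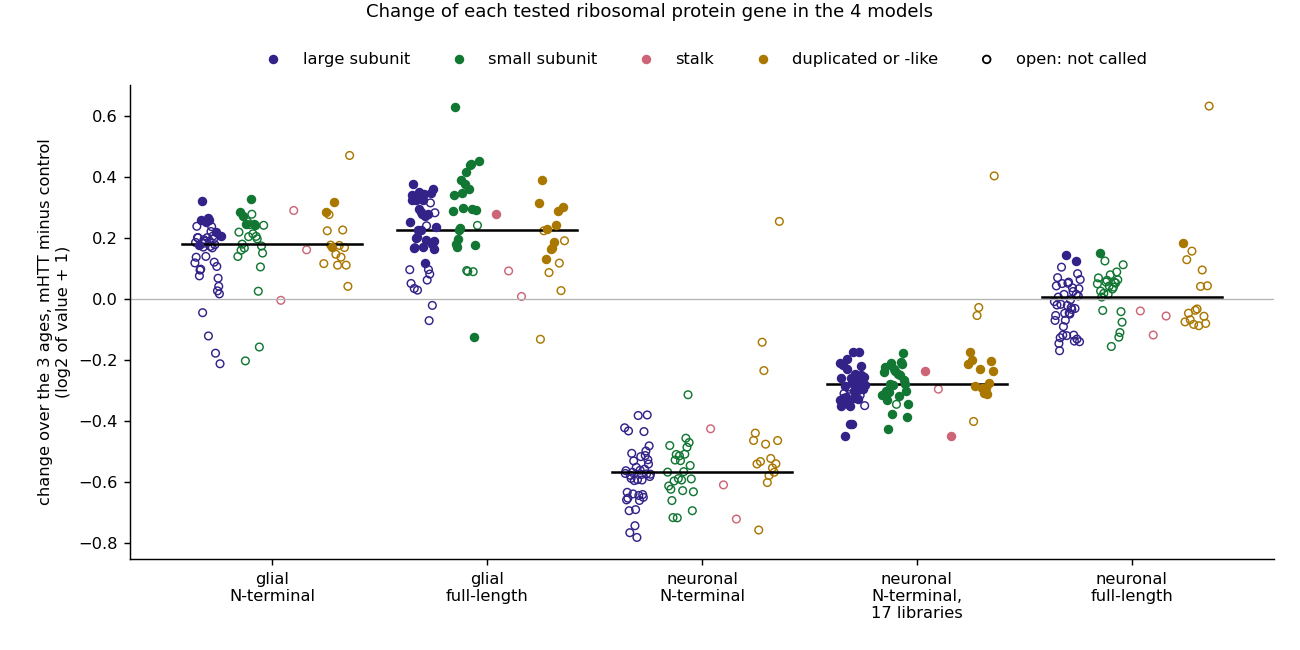
Each point is 1 of 85 tested members, and its height is the change over the 3 ages (log2 of value + 1, mHTT minus control). Filled points had an adjusted p under 0.05 in limma, colours give the role, and black bars are medians over the members. The medians are 0.18 and 0.23 in the glial models, -0.57 and, without 1 control library, -0.28 in neuronal N-terminal heads, and 0.01 in neuronal full-length heads.

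**Figure D3:**
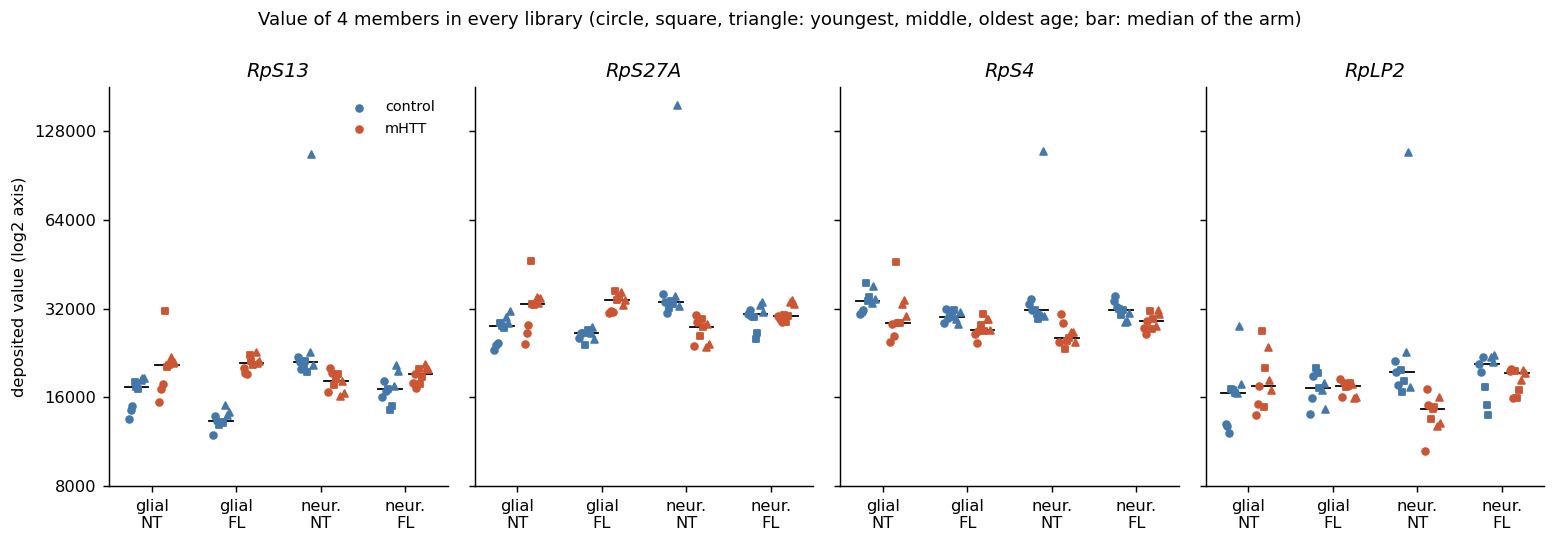
Deposited values (log2 axis) of RpS13, RpS27A, RpS4 and RpLP2 in all 72 libraries, by model (NT for N-terminal, FL for full-length) and arm, with symbols for the youngest, middle and oldest age and a bar at the median of each arm. RpS13 separates the arms of the glial full-length model, and RpS27A those of both the glial full-length and the neuronal N-terminal model. The highest neuronal control point in each panel is the library of day 11 that stood apart.

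Neuronal expression of the N-terminal fragment gave counts that depended on 1 library. With all 18 libraries, 84 of 85 members had a negative change and the median was -0.57, against 0.01 over all genes, yet limma called 0 members higher and 0 lower (background 6.03% and 7.53%, 25 members at an unadjusted p under 0.05). The standard errors were wide, with a median of 0.28. At days 7, 9 and 11 limma called 0 members lower (background 0.866%, 2.53% and 4.57%, with 0, 0 and 75 members at an unadjusted p under 0.05). The share of all genes at an unadjusted p is not given, so the counts of 25 and 75 cannot be read as particular to the members. The control group of day 11 includes the library that stood apart. Leaving out the other control libraries of day 11 in turn gave 2 members lower without replicate 1 and 30 without replicate 3 (background 9.29% and 10.8%).

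Without the control library of day 11 that stood apart, 72 of 85 members were called lower and 0 higher (background 19.0% and 17.8%). The median change was -0.28 and the median standard error 0.07. The member level was 0.13 ± 0.07 (SD, n = 3) in controls and -0.13 ± 0.28 in mHTT flies at day 7, and 0.11 ± 0.08 and -0.16 ± 0.06 at day 9, ages that do not involve that library. By age, 6, 13 and 27 members were then called lower at days 7, 9 and 11 (background 6.67%, 11.5% and 10.3%). The share at day 7 was close to the background. Replicate 1 of the mHTT group at day 7, with a level of -0.45, was the lowest of all 72 libraries.

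RpL18 and RpLP2 had the largest falls among the members called without that library, and were named after these values were seen. RpLP2 of the stalk ran from 16685 through a median of 18790 to 22877 in 8 controls and from 10549 through a median of 14606 to 17027 in mHTT flies, with a small overlap, and fell by 0.45 ± 0.09 (limma, adjusted p = 0.00127). RpL18, a large-subunit protein, ran from 13687 through 15329 to 20297 in controls and from 8520 through 11878 to 15794 in mHTT flies, again with a small overlap, and fell by 0.45 ± 0.12 (adjusted p = 0.00785).

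The fall without that library reached all roles. It was called in 34 of 41 large-subunit, 24 of 25 small-subunit, 2 of 3 stalk and 12 of 16 duplicated or -like genes. RpS27A, with 30893 to 35883 in controls and 23760 to 30523 in mHTT flies, fell by 0.32 ± 0.06 (limma, adjusted p = 0.000572), and RpL40, with 21140 to 23368 and 16830 to 20417, fell by 0.25 ± 0.04 (adjusted p = 0.000255). RpS6 fell by 0.28 ± 0.09 (adjusted p = 0.0179), RpLP0 by 0.24 ± 0.07 (adjusted p = 0.0181), RpS3 by 0.21 ± 0.07 (adjusted p = 0.0395), RpL41 by 0.22 ± 0.06 (adjusted p = 0.0097) and RpL22 by 0.20 ± 0.05 (adjusted p = 0.00353). RpLP1 had a change of -0.29 ± 0.12 (adjusted p = 0.0698).

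In 14 of 85 members every mHTT library lay below every control library, whether or not the control library that stood apart was counted, against 2.36% of all genes with it and 3.31% without it. Among the 14 were RpS15, RpS15Aa, RpS18, RpS23, RpS27A, RpS29, RpL5, RpL7, RpL9, RpL30, RpL36A and RpL40. The 13 members not called included RpL4, RpL8, RpL13A, RpL17, RpL23A, RpL34b, RpL35A and RpS26.

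With the N-terminal fragment in glia, fewer members were called. Over the 3 ages 17 of 85 members were called higher and 0 lower (limma, background 20.4% and 12.1%), so that the share of members called higher was that of all genes. The median change was 0.18 against 0.06 over all genes. Without the mHTT library of day 7 that stood apart, the median was 0.09, 25 members were called higher, all 17 among them, and 3 lower (background 25.2% and 15.0%). At day 7 with all libraries 12 were called higher, at days 5 and 8 none (limma, background 11.2%, 7.08% and 5.57%, with 1 member at an unadjusted p under 0.05 on each of days 5 and 8), and the median change at day 7 was 0.31 with that library and 0.03 without it. The count over the 3 ages was 45 without replicate 2 of the mHTT group at day 7 and 8 without replicate 3 of the mHTT group at day 5 (background 23.5% and 18.2%).

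RpS25, a small-subunit protein, and RpL21, of the large subunit, had the largest changes among the 17 together with RpLP0-like. RpS25 ran from 18177 through a median of 21874 to 24115 in controls and from 21529 through 26204 to 42120 in mHTT flies, and rose by 0.33 ± 0.08 (limma, adjusted p = 0.00414). RpL21 ran from 21163 through 22628 to 25800 and from 22827 through 28479 to 39761, and rose by 0.32 ± 0.06 (adjusted p = 0.000835). The highest mHTT value of each was that of the library that stood apart. Without it the highest were 28711 and 30959, the arms still overlapped, and RpS25 rose by 0.25 ± 0.04 (adjusted p = 6.12e-05) and RpL21 by 0.27 ± 0.04 (adjusted p = 9.42e-05).

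RpLP0-like, a relative of the stalk base that in yeast works in ribosome assembly, ran from 457 through a median of 493 to 590 in controls and from 505 through 611 to 903 in mHTT flies. It rose by 0.32 ± 0.07 (limma, adjusted p = 0.00385), and without the library that stood apart by 0.25 ± 0.04 (adjusted p = 0.000344). The stalk genes proper were not called: RpLP0 had a change of 0.00 ± 0.10, RpLP1 of 0.29 ± 0.12 and RpLP2 of 0.16 ± 0.12 (adjusted p = 0.984, 0.0715 and 0.327). RpS27A rose by 0.25 ± 0.06 (adjusted p = 0.00825) and RpL40 by 0.22 ± 0.07 (adjusted p = 0.032). RpS3, RpS6, RpL22 and RpL41 were not called, with changes of 0.21, 0.11, -0.04 and 0.11.

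RpS4, RpL3 and RpS2 were lower in this model once that library was left out. RpS4 then ran from 30731 through a median of 34063 to 39038 in controls and from 24631 through 28570 to 34361 in mHTT flies, and fell by 0.23 ± 0.05 (limma, adjusted p = 0.00113). RpL3, which lies at the peptidyl transferase centre, fell by 0.21 ± 0.06 (adjusted p = 0.0107) and RpS2 by 0.31 ± 0.09 (adjusted p = 0.0119). With all libraries their changes were -0.16, -0.12 and -0.20 and none was called.

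Neuronal expression of the full-length protein moved few members. Over the 3 ages 4 of 85 were called higher and 0 lower (limma, background 9.4% and 9.54%), a smaller share than among all genes, and the median change was 0.01. Leaving out 1 library at a time gave 1 to 4 higher. Without the mHTT library with high ovary and gut markers, 4 were higher and 2 lower (background 18.3% and 17.4%). RpL10Ab, which forms the second stalk of the large subunit, ran from 18064 through a median of 20758 to 24899 in controls and from 23080 through 24384 to 25201 in mHTT flies, and rose by 0.18 ± 0.05 (adjusted p = 0.0153). RpS13 rose by 0.15 ± 0.05 (adjusted p = 0.0438), RpL27A by 0.15 ± 0.05 (adjusted p = 0.04) and RpL40 by 0.13 ± 0.04 (adjusted p = 0.0497). Each overlapped between the arms and lay near the threshold. RpS27A had a change of 0.04, RpS3 of 0.05, RpS6 of -0.11, RpL22 of 0.05, RpL41 of 0.02, RpLP0 of -0.04, RpLP1 of -0.12 and RpLP2 of -0.06, none of them called.

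The sign of the members' median change was not the same at the 3 ages of this model, but the F test given below called no member. At day 18 only 12 of 85 members had a positive change, with a median of -0.15, at day 20 79 of 85 with a median of 0.18, and at day 22 32 of 85 with a median of -0.03. Called lower at day 18 were RpS4, RpS6, RpL23 and RpLP0-like (background 4.97%, and 4.22% for higher). Called higher at day 20 were RpS30, RpL10Ab and RpL27A (background 2.41%). Both shares were close to the background. Leaving out 1 library of the age at a time gave 0 to 8 lower at day 18 and always 0 higher at day 20. At day 22 the number called was 0 (limma, background 3.07%, 2 members at an unadjusted p under 0.05). The control level itself was 0.12 ± 0.04 (SD, n = 3) at day 18, -0.14 ± 0.05 at day 20 and 0.13 ± 0.06 at day 22, while the mHTT level was -0.02 ± 0.10, 0.03 ± 0.11 and 0.10 ± 0.07. The F test called 0 members (limma, background 0.731%). At an unadjusted p under 0.05 there were 40 of 85 members. The share of all genes at that unadjusted p is not given, so this count cannot be read as particular to the members. In the N-terminal models the F test also called 0 (background 0.27% glial and 0.00984% neuronal, with 2 and 0 members at an unadjusted p under 0.05).

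Control flies differed among ages in glial N-terminal heads too, where the member level was -0.30 ± 0.02 (SD, n = 3) at day 5, -0.02 ± 0.05 at day 7 and 0.07 ± 0.11 at day 8. The level at day 5 lay below those at days 7 and 8 by more than the spread between replicates. These differences between ages were not tested.

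The changes of 2 models were compared directly in a fit of all 72 libraries. For each gene this fit shares 1 estimate of spread among the models, although their spread was unequal. The pooled SD of the member level within groups was 0.63 in neuronal N-terminal heads and 0.21 in glial N-terminal heads. It was 0.09 in glial and 0.07 in neuronal full-length heads. In the fit of all libraries, neuronal and glial expression of the N-terminal fragment differed for most members. With neuronal expression 75 of 85 had a lower change (limma, background 18.6%). Without the 2 libraries that stood apart it was 67 of 85 (background 19.0%), with a median difference of -0.37. RpL34b differed most, by -1.03 ± 0.33 with all libraries (adjusted p = 0.0136) and by -0.54 ± 0.21 without those 2 (adjusted p = 0.0405). A fit of the 36 libraries of the N-terminal models alone called far fewer members, as given below. With the full-length protein, 0 members differed in the full fit (limma, background 11.1%, 2 members at an unadjusted p under 0.05) and 41 of 85 were lower with neuronal expression without the 2 libraries (background 16.7%), RpS13 by 0.48 ± 0.06 (adjusted p = 7.62e-10). Neither library belongs to the full-length models, so that their removal changed the pooled estimate of the spread and not the median difference of -0.23.

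Fragment and full-length protein were compared within a driver. In neurons 25 of 85 members had a lower change with the fragment (limma, background 8.06%), and 55 without the 2 libraries (background 11.1%). RpS9 differed most among those called, by -0.74 ± 0.23 with all libraries (adjusted p = 0.02) and by -0.46 ± 0.10 without the 2 (adjusted p = 0.00032). In a fit of the 36 libraries of both neuronal models 0 members were called. In glia 0 differed in the full fit (limma, background 12.5%, 2 members at an unadjusted p under 0.05), and without the 2 libraries 32 of 85 had a lower change with the fragment (background 17.3%) and 1 a higher change. Age differs between fragment and full-length models, and in neurons so does temperature, so that construct, age and temperature cannot be told apart.

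Changes were also set against transcript length. Members with transcripts up to 1000 bases and longer members had median changes of 0.23 and 0.23 in glial full-length heads and of -0.28 and -0.26 in neuronal N-terminal heads without the control library. Other genes up to 1000 bases had medians of 0.03 and -0.04 there. With all libraries of the neuronal N-terminal model, other genes up to 1000 bases had a median change of -0.23 and longer ones 0.05, against -0.58 and -0.52 for short and long members. In glial N-terminal heads short members had 0.20, long members 0.13 and other short genes 0.12. After a smooth trend with length had been removed from every library, 41 members were higher and 3 lower in glial full-length heads (background 21.3% and 22.7%), and 19 were lower in neuronal N-terminal heads with all libraries (background 10.4%). Glial N-terminal heads then had 13 higher and 3 lower (background 17.1% and 17.3%), and in neuronal full-length heads 7 were higher (background 11.9%), so that the share of higher members lay below the background in both.

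Abundant short genes moved partly alongside. The 52 other genes up to 1000 bases with a mean of at least 5000 had a median change of 0.26 in glial full-length heads, close to that of the members, with 29 called higher and 10 lower. In neuronal N-terminal heads without the control library their median was -0.14, with 10 called higher and 22 lower, against -0.28 in the members.

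**Figure D4:**
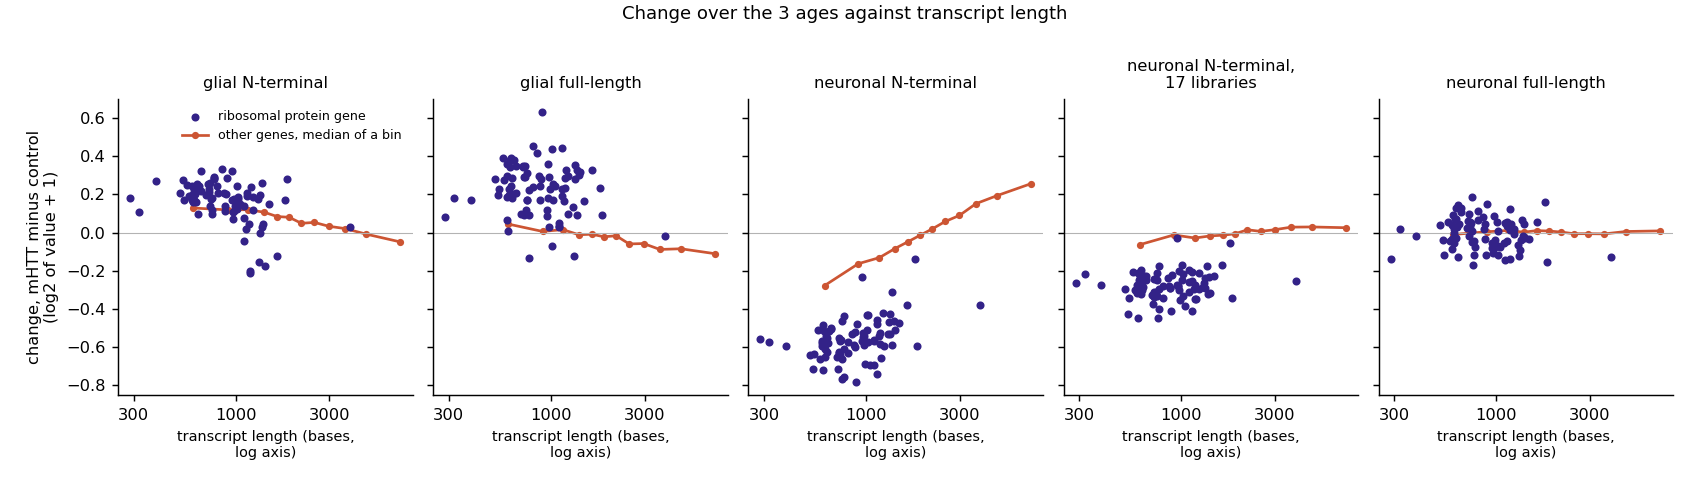
Change over the 3 ages (log2 of value + 1, mHTT minus control) against transcript length (log axis). Blue points are 84 of the 85 tested members, with 1 member of widely scattered values left out, and the orange line joins medians of other genes in 12 bins of length. With all libraries of the neuronal N-terminal model the other genes slope upward and the members lie below them, and without the control library of day 11 the slope is nearly gone and most members still lie below (the panel of 17 libraries).

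The weakly expressed copies that passed the filter were tested in the same fits. RpS15Ab rose by 0.29 ± 0.04 in glial full-length heads (limma, adjusted p = 3.35e-05), with 537 to 617 in controls and 600 to 816 in mHTT flies, and fell by 0.31 ± 0.05 in neuronal N-terminal heads without the control library (adjusted p = 7.54e-05). Its partner RpS15Aa changed by 0.24 ± 0.04 and -0.29 ± 0.05 (adjusted p = 0.000312 and 0.000219). RpL24-like, a relative of RpL24 whose yeast counterpart acts in ribosome assembly, had a change of -0.13 ± 0.06 in glial full-length heads (adjusted p = 0.0682), where RpLP0-like had 0.09 ± 0.07 (adjusted p = 0.313). In glial N-terminal heads RpL24-like rose by 0.29 ± 0.09 (adjusted p = 0.0274). RpL7-like rose by 0.17 ± 0.06 in glial N-terminal heads (adjusted p = 0.0351) and by 0.23 ± 0.05 in glial full-length heads (adjusted p = 0.00188).

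Among the pairs in which both copies were well expressed, the copies had changes of the same sign in glial full-length heads. Copies with near-identical sequence can share reads, so the changes within a pair may not be independent. In glial full-length heads RpS14a rose by 0.17 ± 0.06 and RpS14b by 0.19 ± 0.07 (limma, adjusted p = 0.0461 and 0.0379). RpL34a rose by 0.39 ± 0.05 (adjusted p = 7.93e-06), whereas RpL34b had a change of 0.22 ± 0.14 (adjusted p = 0.21). RpS10b, RpL37a and RpL10Ab were also called higher there, and RpS19a and RpS28b were not called.

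The rest of the translation machinery was described by lists chosen with the members. For these lists and the markers below, the background over all genes was 20.4% higher and 12.1% lower in glial N-terminal heads. It was 19.3% and 25.1% in glial full-length, 6.03% and 7.53% in neuronal N-terminal and 9.4% and 9.54% in neuronal full-length heads. Without the neuronal control library of day 11 that stood apart it was 17.8% and 19.0%. Rack1 and sta encode ribosomal proteins under other symbols and were no members. Rack1, a scaffold on the small subunit, rose by 0.48 ± 0.07 in glial full-length heads (limma, adjusted p = 2.57e-05) and by 0.20 ± 0.06 in neuronal full-length heads (adjusted p = 0.035). The other, sta, had a change of 0.24 ± 0.10 in glial full-length heads (adjusted p = 0.0693).

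Of 10 elongation factors and partners, 9 were higher and 1 lower in glial full-length heads (background 19.3% and 25.1%), with a median of 0.43. eIF-5A, which relieves stalled ribosomes, rose by 0.63 ± 0.06 (limma, adjusted p = 3.31e-07). The exception, Ef1alpha100E, named after its value was seen, fell by 0.14 ± 0.05 (adjusted p = 0.037). In glial N-terminal heads 5 were higher and 3 lower, and there the abundant Ef1alpha48D fell by 0.70 ± 0.08 (adjusted p = 7.35e-06) with a mean value of 214938 in controls and 133948 in mHTT flies, where no ribosomal protein fell by as much. In neuronal N-terminal heads 0 were called with all libraries, and without the control library 8 were lower and 1 higher. In neuronal full-length heads 2 were higher, and Ef1beta, which recharges the tRNA carrier, rose by 0.46 ± 0.06 (adjusted p = 0.000113).

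Of 17 initiation factors tested, 9 were higher and 1 lower in glial full-length heads, 7 and 0 in the glial N-terminal, 2 and 1 in the neuronal full-length, and 0 and 0 in neuronal N-terminal heads (2 and 3 without the control library). eIF3-S8, a subunit of the scaffold that binds the small subunit, rose by 0.43 ± 0.04 in glial full-length heads (limma, adjusted p = 2.79e-07), and eIF6, which keeps the subunits apart and helps to make the large one, rose by 0.43 ± 0.10 in glial N-terminal heads (adjusted p = 0.00485) and fell by 0.24 ± 0.06 in neuronal full-length heads (adjusted p = 0.0117). Of 17 ribosome biogenesis genes, 7 were higher in glial N-terminal heads, Surf6 by 0.33 ± 0.10 (adjusted p = 0.018), against 1 higher, pit by 0.34 ± 0.09 (adjusted p = 0.00645), and 1 lower in glial full-length heads and 0 in both neuronal models. In glial N-terminal heads these genes had a median of 0.18.

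Of 16 regulators of growth and stress, 2 were higher and 8 lower in glial full-length heads, 3 and 1 in glial N-terminal heads, 0 and 2 in neuronal full-length heads and 0 in neuronal N-terminal heads (4 and 1 without the control library). PEK, the kinase of the endoplasmic reticulum stress response, fell by 0.48 ± 0.04 in glial full-length heads (limma, adjusted p = 1.40e-07), and in neuronal full-length flies by 0.24 ± 0.04 (adjusted p = 0.00105). Without the control library PEK also fell in neuronal N-terminal heads, by 0.23 ± 0.04 (limma, adjusted p = 0.000268). Without the mHTT library that stood apart it rose in glial N-terminal heads, by 0.09 ± 0.03 (adjusted p = 0.0156). With all libraries PEK was called in neither N-terminal model. The next genes were named after their values were seen. The fly Myc, dm, fell by 0.42 ± 0.07 in glial full-length heads (adjusted p = 0.000116). In neuronal N-terminal heads dm rose by 0.27 ± 0.08 without the control library (limma, adjusted p = 0.0112), and with all libraries it was not called. Xrp1, a transcription factor that responds to loss of ribosomal proteins, rose by 0.36 ± 0.03 in glial N-terminal heads (adjusted p = 4.77e-07) and fell by 0.25 ± 0.05 in glial full-length heads (adjusted p = 0.000851). Its binding partner Irbp18, listed as CG6272, rose by 0.64 ± 0.05 in the former (adjusted p = 1.21e-07) and fell by 0.19 ± 0.06 in the latter (adjusted p = 0.0213).

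The ribosomal proteins of mitochondria, 72 genes made in the same cytosol but used in another ribosome, were counted in the same fits, and their difference from the cytosolic set was not tested. In glial full-length heads 6 were higher and 3 lower, shares below the background of 19.3% and 25.1%. The median was 0.01, and mRpS31 fell by 0.50 ± 0.03 (limma, adjusted p = 3.44e-09). In glial N-terminal heads 1 was higher and 1 lower, and in neuronal full-length heads 2 were lower. In neuronal N-terminal heads 1 was lower with all libraries, and 1 was higher and 23 lower without the control library, with a median of -0.11.

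Markers of cell types also changed, some in the direction of the members and some against it. In whole heads fewer cells of a type and less RNA per cell cannot be told apart. In glial full-length heads the summed value of 6 fat body markers ran from 340293 to 738530 in controls and from 1123030 to 2274458 in mHTT flies, and 5 of 5 tested were higher. The 6 haemocyte markers summed to 4099 to 7025 and 8677 to 12950, and 6 of 6 were higher. There 4 of 7 neuron, 4 of 6 glia, 4 of 7 photoreceptor and 4 of 6 muscle markers were lower (background 25.1%). So were 6 of 8 gut, 2 of 8 ovary and 1 of 2 testis markers, and 1 gut marker was higher (background 19.3%). The gut markers summed to 1782 through a median of 2942 to 86385 in controls and 2196 through 3249 to 4575 in mHTT flies, and the highest control value was that of replicate 1 at day 22.

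In neuronal N-terminal heads without the control library, the fat body markers summed to 1124599 to 1744975 in controls and 702962 to 1492740 in mHTT flies. Of those tested 5 of 5, the yolk protein genes among them, were lower with or without that library. In that comparison 5 of 7 photoreceptor markers were lower, 3 of 6 glia markers were higher and 1 lower, and 3 of 6 ovary markers were higher. In glial N-terminal heads 6 of 6 glia markers were lower, repo by 0.72 ± 0.07 (limma, adjusted p = 1.47e-06), 5 of 7 photoreceptor markers and 2 of 6 haemocyte markers were higher and 2 of 5 fat body markers lower. In neuronal full-length heads 4 of 6 muscle markers were higher and 0 of 7 neuron and 0 of 6 glia markers were called. The neuronal gene elav and the glial gene repo were detected in all libraries, with lowest values of 901 and 512. The part of these other cell types in the ribosomal protein results was not tested.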

How the data were processed

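The authors deposited 1 table of signal values for 13557 genes in 72 libraries, whose columns each matched 1 sample's label. The deposited signal has a 75th percentile of 1000 in every library. The submitters' processing notes name CASAVA 1.8.2, Bowtie 0.12.0, RSEM 1.1.19, DESeq2 and the genome build dm3, without their roles. Whether reads were counted by strand is not given in the sources used here. Low values of a library are multiples of 1 step whatever the gene's length, and the step was taken as 1 read: it was 0.404 to 1.12, and 81.4% to 91.3% of values above 0 were whole within 0.05 of it. The estimated depth was 34900000 to 46700000 reads. Since the other values were not whole, no count test or counting interval is given. Per the labels' protocols, each library came from 50 heads and was prepared with a kit that keeps the strand of the mRNA.

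From these values, log2(value + 1) was tested with limma 3.58.1 in R 4.3.3 (trended empirical Bayes). Genes with at least 10 in at least 3 libraries entered, 1 mean was fitted per group, and p-values were adjusted over all genes by Benjamini-Hochberg with a threshold of 0.05. Fold changes of low genes are understated on this scale. Counts of members at an unadjusted p are given without the share of all genes. The main design used the 18 libraries of a model. Comparisons between models used all 72. For mHTT libraries of the neuronal full-length model, titles name other ages than their age field, descriptions and growth protocol, and the latter were used. Transcript lengths came from the Ensembl canonical transcripts of a later build, which gave a length for 96.6% of genes and for 90 of 90 members. They served only for the checks on length and for levels per kilobase. Sequences and coordinates are not shown.

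The members and all lists were chosen with earlier results of these data known. Genes were named by rule: stalk, ubiquitin fusions, RpL41, RpS6, RpS3 and RpL22 always, the duplicated and -like members, the 3 largest called rises and falls per model, the largest called difference per pair of models, and the called gene with the largest change per list. 0 members were called in 1 direction in all 4 models. Alternatives covered the pseudocount, the filter, the scaling, a replicate block, the label prefix, the length trend and leaving out each library. The procedure was tested on simulated data first. Same-numbered replicates did not deviate together, so that no pairing was used. A few members that these rules name are not reported here.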

Additional observations from a re-analysis of the deposited data

Results flagged for a closer look

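The change of ribosomal protein genes differed between models in direct tests. With the N-terminal fragment, 75 members had a different change in neurons and in glia, all lower in neurons, against 18.6% of all genes. Without the 2 libraries that stood apart the number was 67, and in the 36 libraries of both models it was 17. RpL34b had the largest difference, -1.03 (log2, neuronal minus glial), with mHTT minus control values of -0.76 in neurons and 0.28 in glia, and -0.54 without the 2 libraries. Between the neuronal models, 25 members had a different change, all lower with the fragment, against 8.06% of all genes. The number was 55 without the 2 libraries and 0 in the 36 libraries of both models. RpS9 had the largest difference among those called, -0.74 (fragment minus full-length), and -0.46 without the 2 libraries. What underlies these differences was not tested.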

How the results depend on the processing

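Counts below are of members called higher/lower, and the cause of each difference was not tested. The share of all genes called changes with the setting and is given above for only some settings. Without that share a count here cannot be read as particular to the members. Under quantile normalisation the glial full-length model had 17/8 with a median change of 0.041, the glial N-terminal 4 lower and the neuronal N-terminal 4 lower, and RpL21 -0.0051, RpL37a -0.049, RpL41 -0.025, RpLP2 -0.21, RpS10b -0.012, RpS14a -0.037 and RpS28b -0.20 changed sign in the glial full-length model. Median-ratio rescaling gave 7/1 in the glial N-terminal model (7 higher at day 7) and 0 lower in the glial full-length model, also at day 18. With the length trend removed, the glial N-terminal model had 3 lower, with 2 lower at day 5, 1 lower at day 7 and 2 higher at day 8, the glial full-length model 3 lower, with 2 lower at day 18 and 14/1 at day 22, the neuronal N-terminal model 19 lower, 11 at day 11, and the neuronal full-length model 7 higher. Prefix H57777 alone gave 7/0 in the glial and 2/19 in the neuronal full-length model, where RpL27A was -0.023, and H57779 alone 2 lower in the glial full-length and 77 lower in the neuronal N-terminal model. The prefix as covariate gave 2 and 82 lower in these. Fitting all 72 libraries together gave 1 higher in the glial N-terminal, 9/0 in the glial full-length, 81 lower in the neuronal N-terminal and 0 higher in the neuronal full-length model. No filter on low values left 1 higher in the neuronal full-length model.

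A replicate block, although same-numbered libraries were not paired, gave 0 lower at day 18 for full-length mHTT in glia. In neurons it gave for the same protein 1 higher over the ages, 2 lower at day 18 and 0 higher at day 20. The 6 libraries of an age alone gave, in the glial N-terminal model, 23/3 at day 5 and 0 higher at day 7, in the glial full-length model 0 lower at day 18 and 9 higher at day 22, 55 lower at day 9 in the neuronal N-terminal and 12 higher at day 20 in the neuronal full-length model.

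Differences between models also moved. Neuronal minus glial full-length had 1 lower under median-ratio rescaling, 1/4 under quantile normalisation, 6 lower without the length trend, 43 lower in the 36 libraries of both models and 41 lower without the 2 libraries that stood apart. Neuronal minus glial N-terminal had 2/46 under quantile normalisation and 17 lower in the 36 libraries. Glial N-terminal minus full-length had 1 lower under median-ratio rescaling, 6/7 under quantile normalisation, 1/11 without the length trend, 1/4 in the 36 libraries and 1/32 without the 2 libraries. Neuronal N-terminal minus full-length had 48 lower without the length trend, 0 in the 36 libraries and 55 without the 2 libraries.

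Leaving out 1 library at a time, the glial N-terminal model ranged from 8 to 45 higher and 0 to 3 lower over the ages, 0 to 7 higher and 0 to 1 lower at day 5, 2 to 48 higher and 0 to 3 lower at day 7, and 0 to 5 higher at day 8. The glial full-length model ranged from 0 to 2 lower over the ages, 12 to 36 higher and 0 to 0 lower at day 18, and 20 to 38 higher at day 22. The neuronal N-terminal model ranged from 0 to 72 lower over the ages, 0 to 6 at day 7, 0 to 13 at day 9 and 0 to 84 at day 11. The neuronal full-length model ranged from 1 to 4 higher and 0 to 2 lower over the ages, 0 to 8 lower at day 18, 0 to 0 higher at day 20, and 0 to 1 members differed between ages. Estimated depth was 34900000 to 46700000 reads, and not all values were whole reads, so no counting error is given.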
